A study of Mus musculus with 2 samples.

Results

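A set of 10 transcription factor genes that direct the differentiation of the epidermis was followed in newborn mouse skin with and without Sdr9c7: Ovol1, Ovol2, Grhl1, Grhl2, Grhl3, Klf4, Gata3, Trp63, Cebpa and Cebpb. The set was drawn up with earlier results of these data known, and its probes were taken by gene name among the non-control probes of the array. All 10 genes were found, with 14 of the 39417 probes, and on each array all 14 probes gave a signal well above background, with no saturation. The members therefore make up 10 of the 22714 gene names that could be measured on both arrays. The knockout sample was dorsal skin of Sdr9c7-/- mice and the control sample dorsal skin of wild type mice, both on the C57BL/6J background and at postnatal day 0. RNA from 5 animals was pooled for each array, and each genotype had 1 array, so no difference given here has a replicate check and no test was run. Sdr9c7 encodes a short-chain dehydrogenase that acts on acylceramides, lipids of the skin barrier, in the outer epidermis.

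The 10 factors act at successive steps of one process. Trp63 encodes p63, the factor that commits the surface ectoderm to an epidermal fate and maintains basal cells. The Grainyhead-like factors Grhl1, Grhl2 and Grhl3 control junctions and barrier genes, and loss of Grhl3 in the mouse prevents barrier formation. The zinc finger factors Ovol1 and Ovol2 restrain proliferation as cells leave the basal layer and maintain epithelial identity, Klf4 and Gata3 are required for the barrier, and C/EBPα and C/EBPβ, encoded by Cebpa and Cebpb, act in the switch to suprabasal differentiation.

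Ovol1 differed most between the genotypes and was 2.45-fold higher in knockout skin. Grhl3 was 1.54-fold higher and Grhl2 1.32-fold higher. The other members lay within 1.2-fold of the wild type level, among them Trp63, Klf4 and Gata3. At a 2-fold threshold 1 of the 10 members was higher in the knockout, against 0.528% of all measured genes, and 0 of 10 were lower, against 1.35% of all measured genes. The share of all genes 2-fold apart in either direction moved with the processing, at 1.88% here, 0.599% after normexp background correction and 5.77% with no filter on dim probes. At 1.5-fold 2 members were higher, against 2.36% of all genes, and 0 were lower, against 6.04%. Because the members were chosen with earlier results of these data known, these counts do not measure an excess. The median log2 difference, knockout minus wild type, was 0.03 over the members and −0.04 over all measured genes. Of the members 5 were above 0 and 5 below, and of all measured genes 43.1% were above 0.

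Signals are given relative to the 75th percentile of each array, so that 1 equals that percentile. A signal can be set against the same probe on the other array, but not against another probe. The scanner's error model gave each member's log2 difference an error of 0.20 to 0.21, which covers the spots alone. It put the error near 10% of the signal for every member probe, bright or dim, and was not measured from repeat spots. Errors from the spots given below are those of this model. Among 320 probes with at least 8 spots, the median SD of the log2 difference between spots of a probe was 0.058. Among 5176 genes with at least 2 measured probes, the pooled SD of the log2 difference between probes of a gene was 0.25. None of these values covers differences between animals, litters or dissections. Sdr9c7 itself had a relative signal of 0.0479 in the knockout and 0.324 in the wild type (log2 difference −2.76), although the sources do not say whether its probe lies in the deleted part.

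**Figure D1:**
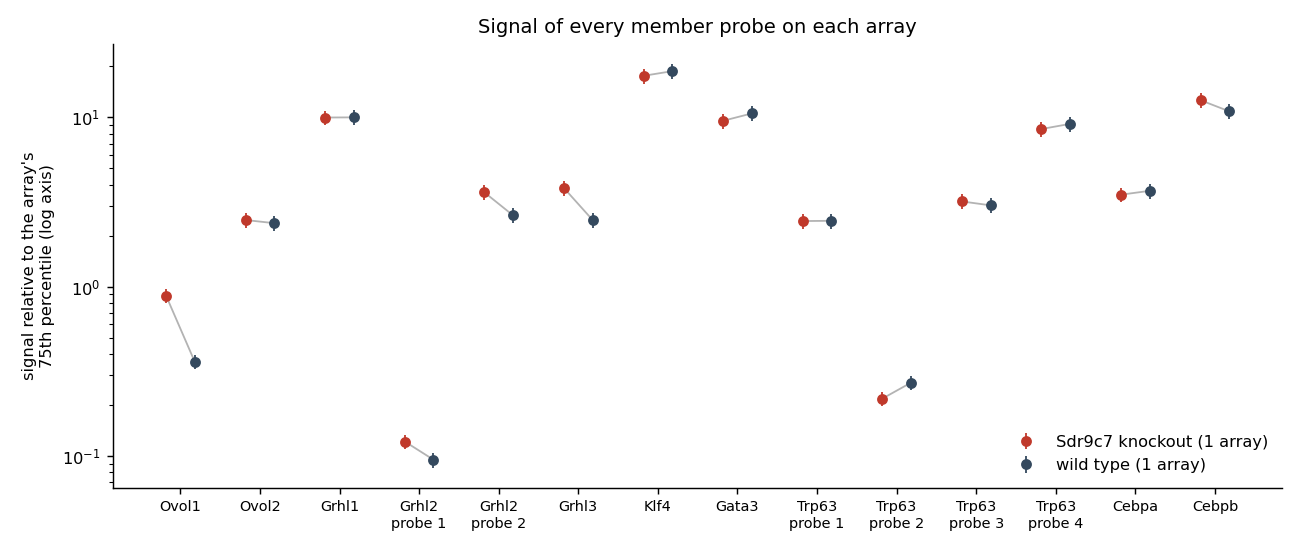
Relative signal of each of the 14 member probes (log axis, 1 is the 75th percentile of the array) on the knockout array, left of each pair, and the wild type array, right, with the scanner's error of each spot. Ovol1 stands at 0.885 in the knockout and 0.361 in the wild type, and heights of different probes are not comparable.

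Ovol1 had a relative signal of 0.885 in the knockout and 0.361 in the wild type, a log2 difference of 1.29. Of the 22714 measured genes 65, or 0.286%, were at least as high in the knockout relative to the wild type. Its 1 probe lies on chromosome 19 from 5549209 to 5549268 on the minus strand (mm9). Its pixels were about as even on one array as on the other, with a pixel SD of 0.171 of the mean in the knockout and 0.181 in the wild type. The paralog Ovol2, which acts in epithelial identity alongside Ovol1, had 2.48 in the knockout and 2.37 in the wild type, a log2 difference of 0.06. The difference of Ovol1 exceeded that of Ovol2 by 1.23, with an error of 0.29 from the spots.

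The Ovol1 spot lies in row 95, at the edge of an area of the slide (rows 92 to 172) in which the arrays differed more from spot to spot among dim spots than on the rest of the slide. Dim spots had a robust SD of the log2 difference of 0.385 inside the areas defined by rows and 0.337 outside. A gap of this direction was fixed in advance, because those rows were picked by the scatter of dim spots. For spots of medium brightness, to which Ovol1 belongs, the values were 0.243 inside and 0.239 outside. Within 25 rows of the Ovol1 spot lay 610 other spots with a mean signal within 2-fold of it. With the median of all detected spots at 0, these had a median log2 difference of 0.02 and a highest value of 1.17, while Ovol1 stood at 1.33. None of the 610 was as high as Ovol1. With these areas left out Ovol1 has no value, which follows from the 25-row margin of the area, set so that this spot falls inside. In that setting 0 of the 6 members still measured were 2-fold apart, against 1.37% of the 16647 genes still measured.

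Of the Grainyhead-like genes, Grhl3, the member of the family most closely tied to barrier formation in the mouse, had a relative signal of 3.82 in the knockout and 2.48 in the wild type, a log2 difference of 0.63. Of all measured genes 449, or 1.98%, were at least as high. Grhl2, which controls epithelial junction genes, is measured by 2 probes. The first had 0.122 in the knockout and 0.0952 in the wild type, and the second 3.61 in the knockout and 2.64 in the wild type. Both were higher in the knockout, by 0.36 and 0.45 on the log2 scale, with an SD of 0.07 between them. Grhl1, which acts in desmosomal adhesion and in hair anchoring, had 9.98 in the knockout and 10.01 in the wild type, a log2 difference of −0.00325. The difference of Grhl3 exceeded that of Grhl1 by 0.63 with an error of 0.29 from the spots, and that of Grhl2 by 0.22 with an error of 0.25. The difference of Grhl2 exceeded that of Grhl1 by 0.41 with an error of 0.25, which is less than 2 pooled SDs between probes of a gene (0.496). That SD refers to 1 probe, and a gap between genes spreads more widely, so 0.496 is too narrow a yardstick for all these gaps. The errors from the spots leave out the spread between animals and arrays, so none of these gaps was tested.

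The Grhl3 and Grhl2 spots lay outside the scattering areas. Of 270 spots of like brightness within 25 rows of Grhl3, 3 were at least as high. Of the 542 such spots around the second Grhl2 probe 9 were at least as high, and of the 531 around the dimmer first probe 60 were. The first Grhl2 probe therefore lay within the scatter of its neighbours, while the second stood near its upper end.

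**Figure D2:**
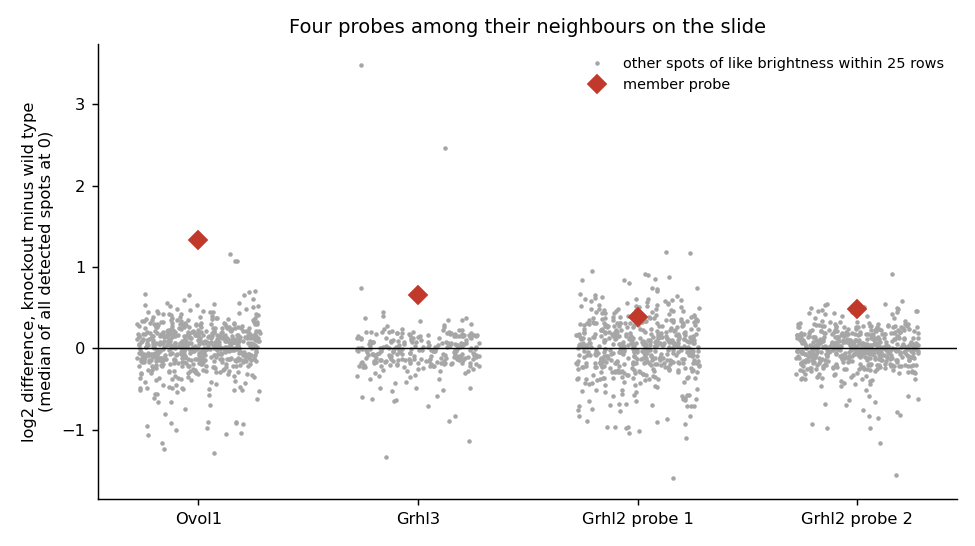
Log2 difference, knockout minus wild type, of the Ovol1, Grhl3 and Grhl2 probes (diamonds) and of the other spots within 25 rows whose mean signal was within 2-fold (points), with the median of all detected spots at 0. Ovol1 at 1.33 lies above its 610 neighbours, whereas the first Grhl2 probe lies among its own.

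The first Grhl2 probe and 1 of the 4 Trp63 probes are shown as the readings of these genes thought to lie in coding sequence, a placement that was not checked. Other member probes are not printed, since most probably lie in UTRs. The Grhl2 probe lies on chromosome 15 from 37239426 to 37239485 on the plus strand, and the Trp63 probe on chromosome 16 from 25871159 to 25871218 on the plus strand (both mm9). Capitals mark a run of 6 CAG triplets in the Trp63 probe.
Grhl2 probe: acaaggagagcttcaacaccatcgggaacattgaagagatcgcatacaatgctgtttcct
Trp63 probe: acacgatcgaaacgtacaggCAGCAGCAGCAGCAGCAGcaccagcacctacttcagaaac
Whether each probe lies in an exon or a UTR was not looked up, because the annotation used here is on another build.

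Trp63 had 4 probes, and their mean log2 difference was −0.09 with an SD of 0.17 between probes. The probe printed above, listed under a RefSeq transcript of the gene, had 3.19 in the knockout and 3.02 in the wild type, and the other RefSeq-listed probe had 8.54 in the knockout and 9.16 in the wild type. The remaining probes are listed under cDNA clones named for the gene. One of them had 2.44 in the knockout and 2.45 in the wild type, the other 0.218 in the knockout and 0.271 in the wild type. The log2 differences were 0.08 and −0.10 for the RefSeq-listed probes and −0.00469 and −0.31 for the clone-listed ones. The lowest of the 4 was thus the dimmest probe, and 540 of the 625 spots of like brightness near it were at least as high as it. This probe and the RefSeq-listed one at −0.10 lay in the scattering areas of the slide. With those areas left out the Trp63 mean was 0.04. The files do not say which p63 isoforms the probes separate.

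Klf4, a zinc finger factor of the upper layers, had 17.6 in the knockout and 18.8 in the wild type, a log2 difference of −0.09. Gata3, which is also a factor of T cells, had 9.55 in the knockout and 10.6 in the wild type, a log2 difference of −0.14. Both differences were smaller than the error that the scanner's model gave their spots. Cebpa had 3.50 in the knockout and 3.68 in the wild type (log2 difference −0.08), and Cebpb 12.6 in the knockout and 10.9 in the wild type (0.22). The difference of Cebpb exceeded that of Cebpa by 0.293, with an error of 0.289 from the spots. Of all measured genes 14.6% were at least as high as Cebpb.

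**Figure D3:**
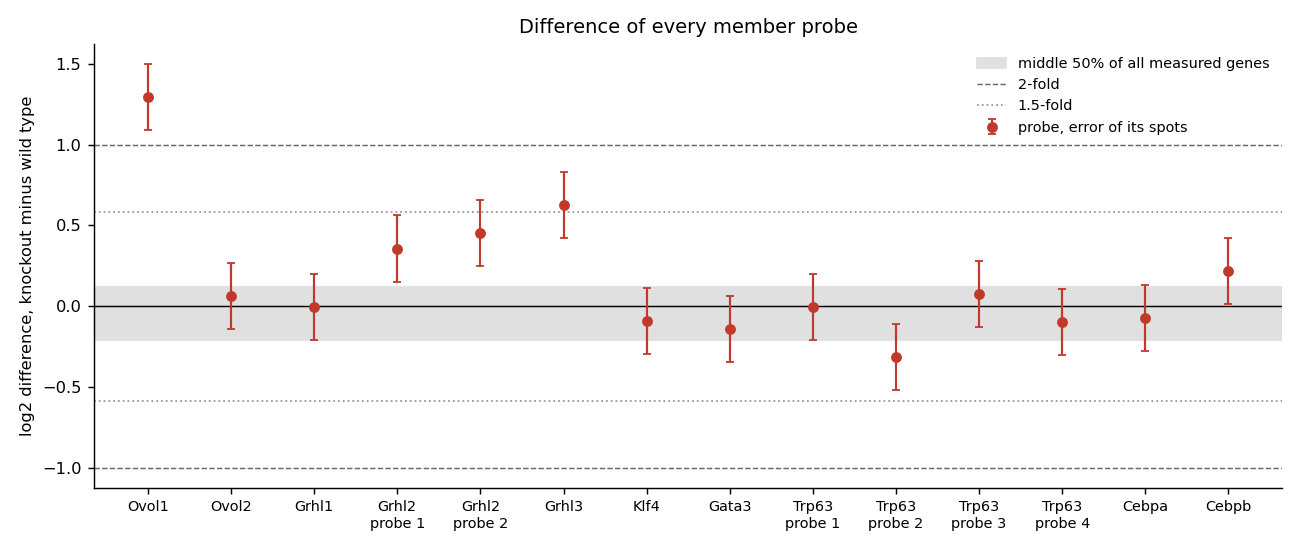
Log2 difference, knockout minus wild type, of each member probe with the scanner model's error of its spots (1 array per genotype). The middle 50% of all measured genes is shaded, with 2-fold and 1.5-fold lines. Ovol1 at 1.29 lies beyond the 2-fold line and Grhl3 at 0.63 beyond the 1.5-fold line, and both Grhl2 probes lie above 0.

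A promoter sequence in the RefSeq table of GRCm38.p6 was found for 7 of the 10 members. That of Grhl3, the highest member with an entry, is given here for the 250 bases before the start of the gene, at chr4:135573633-135573882 on the minus strand of GRCm38.p6, with capitals marking CCACCC, a sequence of the CACCC type bound by Klf factors.
Grhl3 promoter: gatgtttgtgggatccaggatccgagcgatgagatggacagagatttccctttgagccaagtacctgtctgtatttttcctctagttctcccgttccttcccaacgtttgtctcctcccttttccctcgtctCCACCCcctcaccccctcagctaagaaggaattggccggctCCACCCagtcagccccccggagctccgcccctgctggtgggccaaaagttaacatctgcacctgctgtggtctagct
The 7 motifs were searched on both strands of this window. The 7 members have 8 promoters in the table, since Grhl1 has 2. CCACCC was found in 6 of the 8, in Cebpa, Cebpb, Gata3, Grhl3, Ovol2 and 1 of those of Grhl1, and 28.1% of all 32851 promoters hold it. The Egr sequence GCGNGGGCG was found in that of Klf4 and in 4.70% of all promoters. The AP-1 sequence TGANTCA, the cyclic AMP response element TGACGTCA, the Grainyhead sequence AACCNGTT, the GATA sequence AGATAA and the C/EBP sequence TTGCNNAA were not in these windows, and 6.75%, 1.55%, 1.79%, 9.99% and 9.56% of all promoters hold them, in the same order. The members with the CACCC sequence include Grhl3 at 0.63 and Gata3 at −0.14.

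Other transcription factors of the epidermis were set beside the members. All 24 were measured, with a median log2 difference of 0.02, 13 above 0 and 11 below, and 0 were 2-fold apart. At 1.5-fold 1 was higher, against 2.36% of all genes, and 0 were lower, against 6.04%. Bcl11b, a zinc finger factor of skin and T cells, was the highest, with 3.34 in the knockout and 1.88 in the wild type (0.83). Elf3, an epithelial ETS factor, followed at 0.26, with a low signal of 0.0797 in the knockout and 0.0665 in the wild type. Ehf, another epithelial ETS factor, was the lowest at −0.43, with 0.153 in the knockout and 0.207 in the wild type, followed by the vitamin D receptor Vdr at −0.40.

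Of 23 relatives of the members in the same gene families 21 were measured, with a median of −0.03, 10 above 0 and 11 below, and 0 were 2-fold apart. At 1.5-fold 1 was higher, against 2.36% of all genes, and 4 were lower, against 6.04%. Klf10, a TGF-beta-induced relative of Klf4, was lowest, with 2.50 in the knockout and 4.16 in the wild type (−0.74), and Cebpd, the C/EBP relative induced in acute inflammation, had 4.26 in the knockout and 6.90 in the wild type (−0.70). Gata1, a factor of red blood and mast cells, was highest at 0.60, with 0.196 in the knockout and 0.129 in the wild type, and Trp73, the p53 family relative of Trp63, stood at 0.48. Within the C/EBP family Cebpb at 0.22 and Cebpd at −0.70 thus lay on opposite sides of 0.

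Genes of the programmes in which these factors work lay within 1.5-fold of the wild type in all 4 lists tried. Of all measured genes 91.6% also lay within 1.5-fold. Epithelial genes, the setting of Grhl and Ovol factors, had a median of −0.07 over 12 genes, 3 above 0 and 9 below. The tight junction claudins Cldn4 and Cldn7 were lowest at −0.29 and −0.28, and the splicing regulators Esrp2 and Esrp1 highest at 0.22 and 0.04. Mesenchymal genes, some of which Ovol factors repress, had a median of 0.06 over 8 genes. They ranged from Vim (vimentin) at −0.20 and Snai2 at −0.12 to Twist1 at 0.23 and Zeb2 at 0.30. Zeb2 encodes a repressor of E-cadherin and had 0.746 in the knockout and 0.608 in the wild type.

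Basal genes, many of them p63 targets, had a median of 0.08 over 14 genes, 9 above 0 and 5 below. Perp, a desmosomal p63 target, was at −0.09, while the basal keratin gene Krt15 stood at 0.34 and the hemidesmosome gene Dst at 0.47. Suprabasal and cornified genes had a median of 0.03 over 16 of 17 genes, 10 above 0 and 6 below. Flg2, a filaggrin relative, was lowest at −0.34. The transglutaminase genes stood at −0.18 for Tgm1, 0.01 for Tgm5 and 0.27 for Tgm3, beside a pooled SD between probes of a gene of 0.25. Ivl (involucrin) had 2.69 in the knockout and 2.26 in the wild type (0.26).

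**Figure D4:**
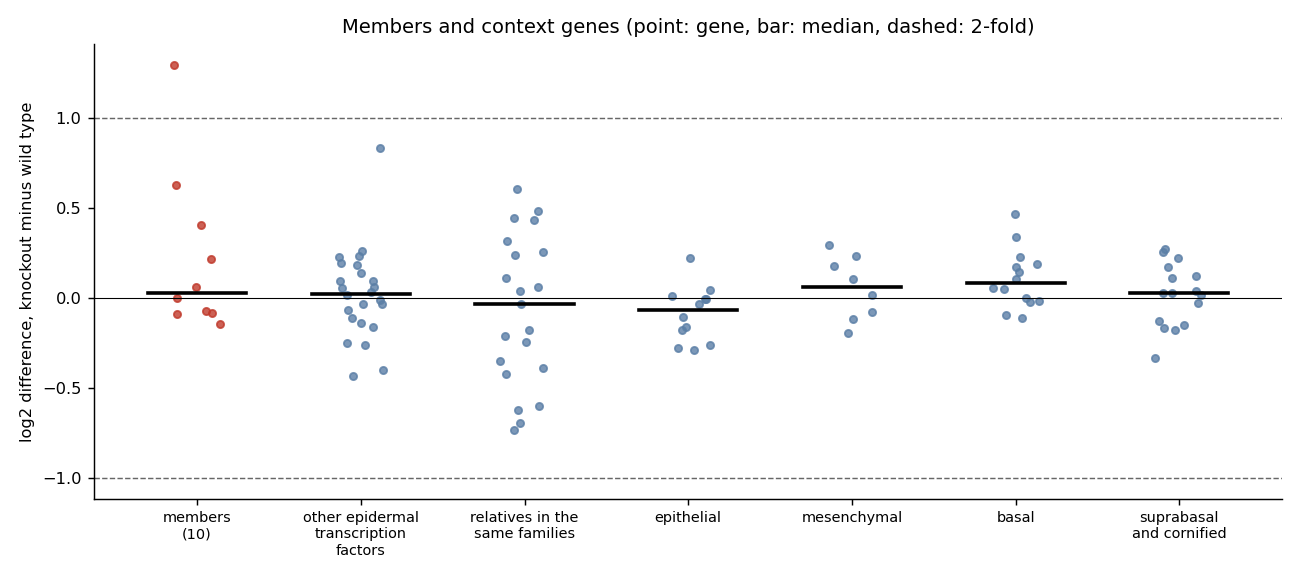
Log2 difference, knockout minus wild type, of the 10 members and of the genes of 6 context lists (points) with the list medians (bars) and 2-fold lines. Ovol1 at 1.29 is the highest point shown, and the list medians lie between −0.07 and 0.08.

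The sample labels name dorsal skin and the design text names epidermis, and markers of dermis, muscle and fat were measured well above background on both arrays. In such a mixed tissue fewer cells of a type cannot be told apart from less RNA per cell. Keratinocyte markers, which mark the cells in which these factors act, had a median of 0.03 over 8 of 8 genes, with a summed relative signal of 453 in the knockout and 458 in the wild type. The lowest was Sbsn at −0.13 and the highest Krt5 at 0.14. Hair follicle markers had a median of −0.01 over 8 of 8 genes and a summed signal of 120 in the knockout and 136 in the wild type, and the inner root sheath keratins Krt25 and Krt27 were lowest at −0.59 and −0.44. The highest members, Ovol1 and Grhl3, stood at 1.29 and 0.63. The part of cell numbers in their values was not tested.

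Skeletal muscle markers were lower in all 10 genes, with a median of −0.94 and a summed signal of 79.1 in the knockout and 141 in the wild type, and Pvalb, Actn3 and Ckm were at least 2-fold lower. Adipocyte markers were lower in all 8 genes, with a median of −0.71 and a summed signal of 52.5 in the knockout and 80.1 in the wild type, and Cfd and Retn were at least 2-fold lower. Fat cells also use Cebpa and Cebpb, which stood at −0.08 and 0.22, and the part of fat in those values was not tested. T cell markers, which bear on Gata3, had a median of 0.17 over 5 of 5 genes, 4 above 0 and 1 below. The gene below 0 was Cd3e at −0.21, the brightest of these probes, with 0.181 in the knockout and 0.210 in the wild type. The dimmest, Cd2, had 0.0462 in the knockout and 0.0429 in the wild type. The summed signal of the 5 markers was 0.474 in the knockout and 0.468 in the wild type, and such sums are weighted towards the brightest probes. Among the other cell types, the median was −0.03 for fibroblast markers (7 of 7 genes), 0.02 for macrophage and Langerhans cell markers (6 of 7), −0.21 for endothelium (4 of 4), −0.39 for melanocytes (4 of 4) and 0.17 for mast cells (4 of 4). The Langerhans cell marker Cd207 was not measured on both arrays.

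**Figure D5:**
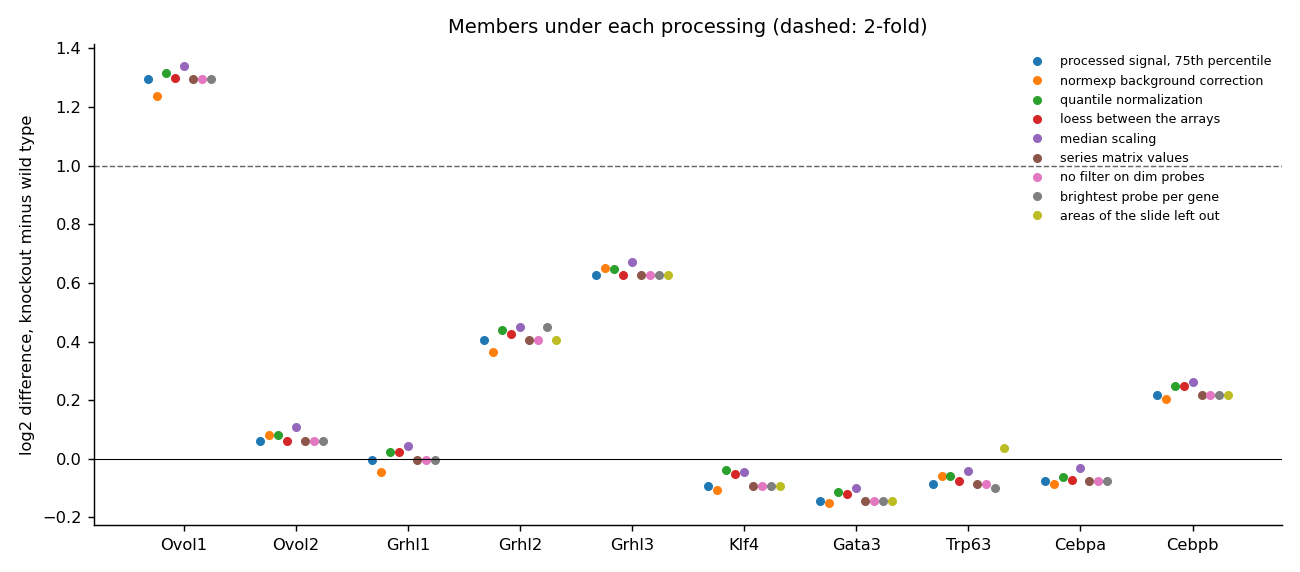
Log2 difference, knockout minus wild type, of each member under the processing used and 8 alternatives. Ovol1 lies between 1.24 and 1.34 where it has a value, Grhl3 between 0.63 and 0.67 and Grhl2 between 0.36 and 0.45. Grhl1 and Trp63 lie on both sides of 0. The series matrix and the lack of a filter on dim probes cannot change a member's value. The brightest probe cannot change that of a member with 1 probe.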

How the data were processed

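Per the file headers and the submitters' processing notes, the authors extracted the intensity of 44397 spots per 1-colour (Cy3) array with Agilent Feature Extraction 11.5.1.1, subtracting background and spatial trends; 200 ng of total RNA was labelled per the labels' protocols. The deposited series matrix holds a ratio: comparison with the scanner files showed the processed intensity over 1 constant per array (2080 for the knockout, median ratio 0.0840; 1906 for the wild type, median ratio 0.0855), linear and uncentred. Here, control spots and 192 outlier spots were left out, the intensity was taken to log2, and each array's 75th percentile over 39417 probes was subtracted. A gene's value is the mean over its probes well above background on both arrays. That flag was set for 76.8% of probes in the knockout and 74.9% in the wild type, and 0 spots were saturated. With 1 array per genotype, precision is limited by the number of arrays. Genes other than the members were named through RefSeq (GRCm38.p6), for 28325 probes by accession, 2204 by symbol and 174 by synonym; 8714 kept the files' name.

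All members are named, and of each context list the highest and lowest 2 genes; marker lists are given by fewer names. Cd207 and Tgm5 were named outside this rule. A gene that the rule names is not reported here. The members and lists were chosen with earlier results of these data known. Scattering areas were found after the data were seen: rows where dim spots, over 11 rows, scattered over 1.25 times the median, with a margin of 25 rows set so that the edge spot Ovol1 counts as inside, and tiles of 20 rows by 8 columns with at least 20% of spots 2-fold apart. The steps were tested on simulated data. Alternatives were normexp (limma 3.58.1, R 4.3.3, offset 50), quantile, loess (statsmodels 0.14.6) and median normalization, the series matrix, no filter on dim probes, the brightest probe, the areas left out and a 1.5-fold threshold.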

Additional observations from a re-analysis of the deposited data

How the results depend on the processing

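The 10 member differences, their median and the 6 list medians moved by less than the SD between probes of a gene (0.25) under every alternative that gave them a value. For several alternatives this was fixed in advance. All 14 member probes passed the filter on dim probes, so leaving it out changed none of the 10 values. The brightest probe is the only probe for the 8 members with 1 probe. Median scaling shifted every gene by the same amount. A member with all its probes outside the scattering areas keeps its value when they are left out. Leaving out the scattering areas of the slide gave no value for Ovol1, Ovol2, Grhl1 or Cebpa, and 0 of the 6 remaining members were then 2-fold apart, against 1.37% of 16647 genes; the margin of the areas was set so that the Ovol1 spot falls inside, so this setting says nothing about the Ovol1 call. At a threshold of 1.5-fold the count was 2. The share of all genes at least 2-fold apart was 1.88%, but 0.599% with normexp correction and 5.77% with no filter on dim probes. Ovol1 lay between 1.24 and 1.34 on the log2 scale. Grhl1, between −0.05 and 0.04, was above 0 in 3 of 8 settings, and Trp63, between −0.10 and 0.04, in 1 of 9, without the areas. The scalings moved the median of all genes by at most 0.05. The series matrix gave the same values as the scanner files, since it differs from them by 1 constant per array. No paired analysis was possible because each genotype has 1 array, and none could be left out. Dim probes are limited by the background: the lowest relative signal well above it was 0.00435 in the knockout and 0.00563 in the wild type.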
